A study of Mus musculus with 4 samples.

Results

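Isolated seminiferous tubules were compared with whole testis in adult W/Wv male mice, on 1 Affymetrix MOE 430A array each. Every gene-specific probe set was kept whose signal reached the median of its array on the brighter of the 2 arrays, which left 12254 of 22626 probe sets and 7300 of 12393 genes. The comparison gives, for each gene, the ratio of the deposited MAS5 signal in tubules to that in whole testis. W/Wv males carry a pair of mutant alleles of Kit, on chromosome 5, which encodes the receptor tyrosine kinase that germ cells need to survive and divide; per the labels they were a cross of WB and B6 and were purchased. The same 2 preparations of adult XX/Sry males, XX mice made male by an Sry transgene, stood as context on 2 further arrays, and the sources used here do not name their strain. Tubules were freed of the tunica, digested with 5 mg/ml collagenase at 37 °C for 40 min and washed over a 70 µm strainer, a treatment that the labels describe for tubules, while whole testis keeps the interstitium. The sources used here do not say how many animals stand behind an array or whether both preparations came from the same ones. There were no replicates, so no difference below has a test or an error between animals, and each is a difference between these arrays.

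The testis has a tubular and an interstitial compartment. Inside the tubule, Sertoli cells nurse the germ cells and seal them behind tight junctions, and a basement membrane and a sheath of contractile peritubular myoid cells surround it. Between the tubules lie Leydig cells, which turn cholesterol into testosterone, with macrophages, blood vessels and fibroblasts that lay down collagen and small proteoglycans. In W/Wv males most tubules hold Sertoli cells with few or no germ cells, which is why such males serve as recipients of transplanted germ cells. In samples of bulk RNA, fewer cells of a type and less RNA per cell cannot be told apart.

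W/Wv whole testis had a median signal of 182.8 over all probe sets and W/Wv tubules one of 156.8, with 171.8 and 158.9 for the XX/Sry pair. Between 69.8% and 75.3% of probe sets on the 4 arrays lay above the background bound, the highest signal of 27 bacterial control probe sets on the array, which was 76.3 in W/Wv whole testis and 46.1 in W/Wv tubules. Where the dimmer signal of a pair fell under its bound, the fold is given as "at least", against the higher bound of the pair. The 18 hybridisation spike controls, bacterial transcripts put into each sample before hybridisation, were brighter on the W/Wv tubule array, with a median log2 ratio of 0.56, against 0.00 in XX/Sry. The ratio of 3' to 5' signal, a sign of RNA quality, was 0.974 in W/Wv whole testis and 0.823 in tubules for the Gapdh control and 1.74 and 1.58 for the actin control. The part of these differences in the results was not tested. The Pearson correlation of log2 signals between the W/Wv arrays was 0.889 across probe sets.

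In W/Wv, the tubules had lower signals for genes of Leydig cells, macrophages, cholesterol synthesis and germ cells, and higher signals for many immediate early genes, tubule junction genes and smooth muscle genes. Of the 12254 probe sets, 789 (6.44%) were at least 2-fold higher in tubules and 1127 (9.2%) at least 2-fold lower. Counted by gene, with the probe set of the highest mean log2 signal standing for each gene, 380 of 7300 (5.21%) were higher and 655 (8.97%) lower, and the median log2 ratio was -0.03. The lower side reached further: with dim signals set to their bound, 256 genes were at least 3-fold lower against 41 at least 3-fold higher, and 6 were at least 8-fold lower against 1. The split depended on scaling, since probe sets higher in tubules made up 41.2% of those past 2-fold with the deposited signals, 63.7% with each array centred on its median, 48.5% with quantile normalisation and 5.65% with the spike controls set equal. These scalings moved the median log2 ratio of the probe sets kept from -0.01 to 0.21, 0.01 and -0.59. A log2 ratio between 0 and 0.56 therefore turns below 0 if the spike controls are set equal. The split also depended on brightness. Of the 3064 dimmest probe sets kept, 6.3% were at least 2-fold higher and 15.6% lower with the deposited signals. Of the next 3063 these shares were 5.6% and 9.2%, and of the 3063 after those 6.5% and 6.0%. Of the 3064 brightest they were 7.4% and 6.0%. The excess of lower probe sets at 2-fold thus lay among the dimmer ones. At the edge of the brightness rule, of the 100 probe sets just inside it 6 were higher and 19 lower, and of the 100 just outside it 10 and 18.

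**Figure D1:**
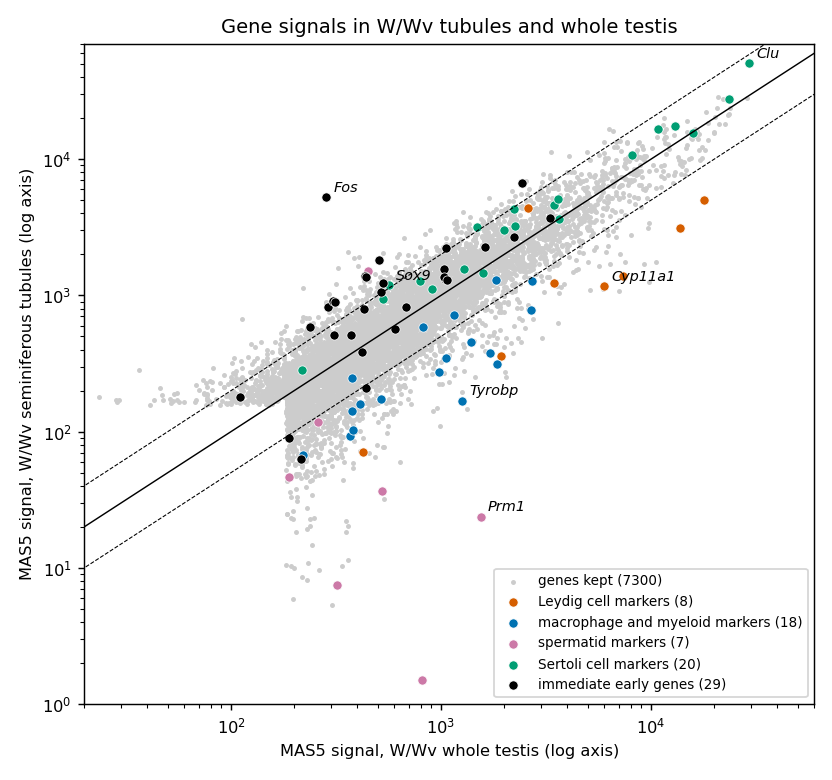
MAS5 signals of the 7300 genes kept in W/Wv whole testis (x, log axis) and W/Wv tubules (y, log axis), 1 grey point a gene, with 5 gene lists in colour. The solid line marks equal signals and the dashed lines 2-fold. Leydig (except Scarb1) and macrophage genes lie below the solid line, Fos lies far above it, and Prm1 reads 1546.1 and 23.8.

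Leydig cell genes lay on the lower side, from the uptake of cholesterol into the mitochondrion to the last step of testosterone synthesis. All 8 markers measured were kept, 7 of them at least 2-fold lower in tubules and 0 higher, where 8.97% of all genes kept were lower, and the median log2 ratio was -2.24. Summed over the list, whole testis read 53217.2 and tubules 16704. Cyp11a1, the enzyme that cuts the cholesterol side chain in the first step of steroid synthesis, had a signal of 5952.3 in whole testis and 1171.5 in tubules, 5.08-fold lower. Hsd3b1, the next dehydrogenase of the pathway, went from 7321.5 to 1389.1 (5.27-fold lower). Cyp17a1, which makes androgen precursors, read 17797.8 and 4989.2, or 3.57-fold lower. Hsd17b3, which carries out the last step to testosterone, was 5.35-fold lower (1930.2 and 360.6), so the enzymes of the whole route from cholesterol to testosterone that were measured lay on the same side. Star, which brings cholesterol into the mitochondrion, had 3458.8 and 1223.3, and its 3 probe sets gave log2 ratios of -1.18, -1.21 and -1.50. Fdx1, the electron carrier of Cyp11a1, was 4.39-fold lower, at 13731.3 and 3125.9. Sult1e1, an oestrogen sulfotransferase, was 6.04-fold lower, at 425.9 and 70.5. The exception was Scarb1, the receptor that takes up cholesterol from lipoprotein, which read 2599.4 in whole testis and 4373.9 in tubules. All 8 markers remained above the background bound in tubules. In XX/Sry the list had a median of -1.31 with 6 of 8 genes at least 2-fold lower, and 6 of the 8 ratios were further below 0 in W/Wv than in XX/Sry.

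The genes that supply cholesterol lay on the same side as the Leydig markers. Of 17 cholesterol synthesis genes kept, 10 were at least 2-fold lower in tubules and 0 higher, all 17 ratios lay below 0, and the median was -1.06. Fdps, farnesyl diphosphate synthase, had 3591 in whole testis and 626.7 in tubules, 5.73-fold lower. Idi1, the isomerase before it, had 1985.8 and 420.1, and the sterol reductase Tm7sf2 had 1148.4 and 258.6. The later enzymes Sc5d and Cyp51 were 4.18-fold and 3.68-fold lower. Hmgcs1, at the start of the pathway, was among the 7 that did not reach 2-fold, at 7859.9 and 5485.9. The XX/Sry median was -1.19, again with 10 genes at least 2-fold lower.

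Start-site sequence was searched for Leydig and other list genes because their members lay on the same side. The windows run from 250 bases before to 50 bases after each transcription start in the RefSeq annotation of GRCm38.p6, and 5984 of the 7300 genes matched 7724 windows. Both strands were searched for AAGGTCA (a binding sequence of the nuclear receptor NR5A1), TGACGTCA (a CREB site), TGANTCA (AP-1), GAGGAAGT (PU.1) and the CArG box of serum response factor, and none of these patterns contains another. Of the 5 Leydig genes with a window, Sult1e1 had the NR5A1 sequence, shown here because NR5A1 is the textbook regulator of steroid enzyme genes. Its window is chr5:87591562-87591861 on the minus strand, and the capitals mark the match, which reads AAGGTCA on the opposite strand.
Sult1e1: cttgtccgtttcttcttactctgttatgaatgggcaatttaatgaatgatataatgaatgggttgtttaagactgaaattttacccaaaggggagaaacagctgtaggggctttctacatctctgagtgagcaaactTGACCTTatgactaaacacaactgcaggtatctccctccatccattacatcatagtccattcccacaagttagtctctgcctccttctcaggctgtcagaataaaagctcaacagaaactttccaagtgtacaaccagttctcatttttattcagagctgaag
The NR5A1 sequence was in 5.1% of the windows of genes lower in tubules, 3.1% of those of genes higher, 3.2% of all windows of genes kept and 4.7% of the 32841 windows in the table. A match is a description of letters, and a window without one says nothing about the factor.

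Macrophage genes were lower in tubules without an exception among those kept. All 18 kept of 20 measured had a log2 ratio below 0, 14 were at least 2-fold lower, and the median was -1.61. Summed over all 20, whole testis read 20308.5 and tubules 7625.1, and 18 of 20 remained above the background bound in tubules. Tyrobp, a signalling adaptor of myeloid cells, had 1255.8 in whole testis and 168.7 in tubules, 7.44-fold lower. Pf4, a chemokine made by platelets and resident macrophages, had 1855.6 and 311.9, 5.95-fold lower. Csf1r, the receptor on which macrophages depend, had 2702.8 and 1273.8, 2.12-fold lower. The group thus spread widely, from Tyrobp to Fcer1g, an Fc receptor subunit with 820.7 and 589.3 (1.39-fold). Adgre1 (the F4/80 antigen) was 2.97-fold lower, Cd68 was 2.56-fold lower, and Mrc1, a mannose receptor of resident macrophages, was 1.42-fold lower at 1831.2 and 1287.8. In XX/Sry the same genes had a median of -2.70, and for 17 of the 18 the ratio was further below 0 there than in W/Wv. Cd68, for example, read 655.3 and 63.7 in XX/Sry.

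The complement genes, some of which are also macrophage markers, followed. Of 7 kept, 5 were at least 2-fold lower and the median was -1.58. The 3 chains of C1q, which starts the classical pathway, were 3.05-fold (C1qa), 4.56-fold (C1qb) and 3.55-fold (C1qc) lower, and Serping1, the inhibitor of C1, was 2.85-fold lower at 4374.6 and 1537.4. MHC class II genes, which present antigen, differed from both lists: of 4 kept, 0 reached 2-fold either way, and H2-Aa read 833.3 in whole testis and 1251 in tubules. The 1 below 0 was H2-Ab1, with probe sets at -0.65 and -0.26. Of 15 windows of macrophage genes, 4 held the PU.1 pattern GAGGAAGT (26.7%), those of C1qc, Ctss, F13a1 and Pf4, against 2.7% of windows of all genes kept and 3.2% of all windows. Other small lists had similar shares, with 2 of 8 spermatid windows (25%), 1 of 5 meiotic windows (20%) and 1 of 7 endothelial windows (14.3%). The share is therefore not particular to macrophage genes. The window of Pf4 is shown because PU.1 is the textbook regulator of myeloid genes and Pf4 was among the genes of this list furthest from 0. It is chr5:90772185-90772484 on the plus strand, with the match, on the opposite strand, in capitals.
Pf4: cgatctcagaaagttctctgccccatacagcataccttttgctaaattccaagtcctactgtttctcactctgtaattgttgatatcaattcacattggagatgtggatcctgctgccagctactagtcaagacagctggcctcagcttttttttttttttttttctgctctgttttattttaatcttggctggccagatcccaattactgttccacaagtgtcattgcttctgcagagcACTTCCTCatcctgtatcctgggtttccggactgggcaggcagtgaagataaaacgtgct

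Genes of interstitial fibroblasts and matrix lay mostly below 0. Of 18 kept, 4 were at least 2-fold lower in tubules and 0 higher, with a median of -0.54, while with the spike controls set equal 11 of 17 were lower, with a median of -1.12. The small proteoglycans that bind collagen fibres were the lower members. Dcn (decorin) had 9636 in whole testis and 3123.9 in tubules, Lum (lumican) 648.1 and 189.5, and Ogn (osteoglycin) 2744.1 and 672.3, which are 3.08-fold, 3.42-fold and 4.08-fold lower. Dpt (dermatopontin) was 3.94-fold lower. Collagen genes lay nearer to 0: Col1a2 had 3152.6 and 1734.1, and Col3a1 had 2667.6 and 1853.6, though a second, dimmer Col3a1 probe set gave -1.35 against -0.53. Probe sets of Col1a1 gave 0.40 and -1.30, so its direction was not settled. Pdgfra, a growth factor receptor of mesenchymal cells, had 1181.4 in whole testis and 1835.5 in tubules of W/Wv and 2525.9 and 846.6 in XX/Sry. Over the list, 16 of 18 ratios were further below 0 in XX/Sry than in W/Wv, the XX/Sry median was -1.73, and 14 of 18 genes were at least 2-fold lower there. The spike controls differed by 0.56 in W/Wv and 0.00 in XX/Sry, so the gap between the genotypes depends on the scaling, and it was not tested.

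**Figure D2:**
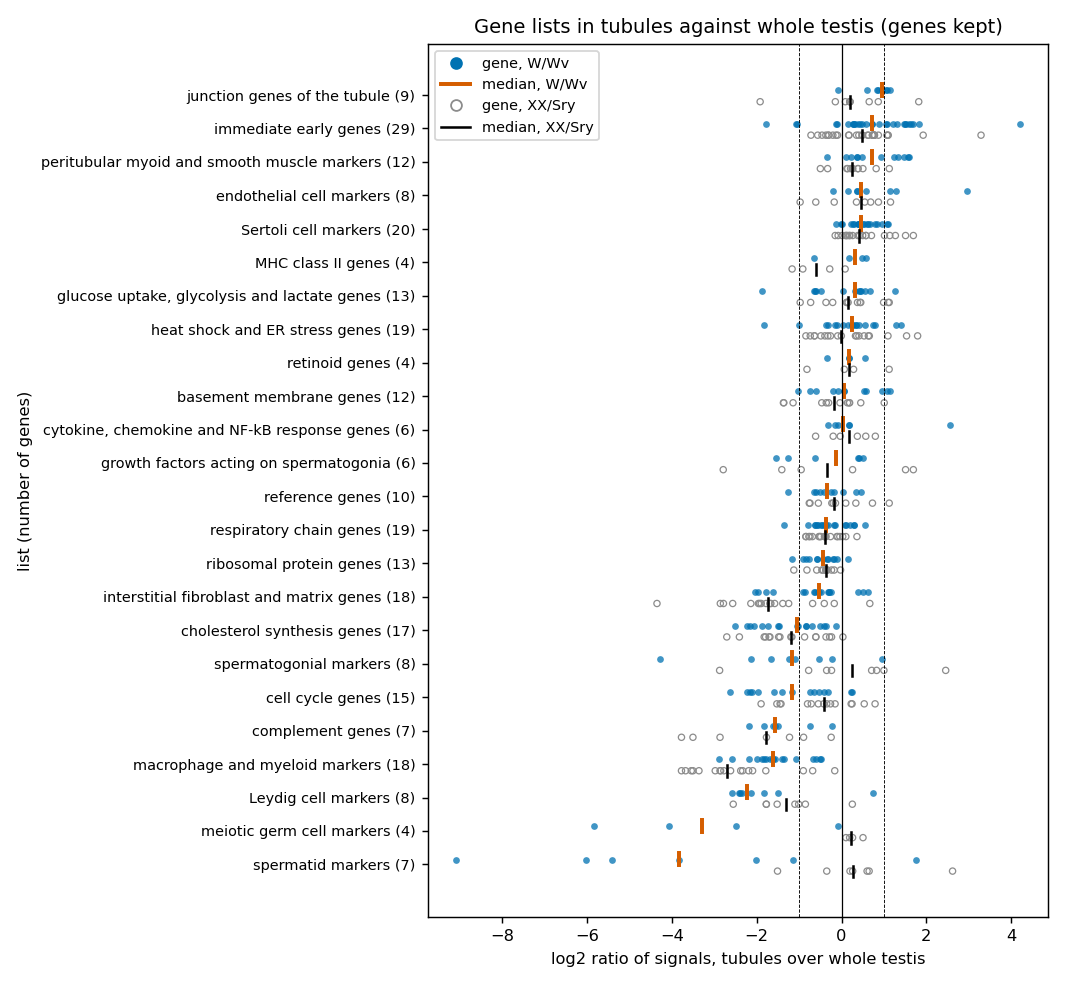
Log2 ratio of signals in tubules over whole testis (x) for the genes kept of each list with at least 4 such genes (y, number in brackets), with W/Wv filled and XX/Sry open. Thick coloured bars are W/Wv medians, black bars XX/Sry medians, and dashed lines 2-fold. Spermatid, meiotic, Leydig and macrophage genes have the lowest W/Wv medians with the deposited signals. The XX/Sry medians of the germ cell lists rest largely on signals near or under background and give no level.

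Many germ cell genes were well above background in W/Wv whole testis and close to it in W/Wv tubules, at stages from spermatogonia to spermatids. Unlike Leydig cells and macrophages, germ cells lie inside the tubules. The sources used here do not say whether both preparations came from the same animals, and the cause of the germ cell difference was not tested. Of 13 spermatogonial markers measured, all lay above the background bound in whole testis and 10 in tubules; of 11 meiotic markers 6 and 3 did, and of 15 spermatid markers 13 and 7. The summed signals in whole testis and tubules were 4859.4 and 3466.2, 1813.8 and 615.7, and 4934.9 and 2168.3. Prm1, the protamine that packs sperm DNA, had 1546.1 in whole testis and 23.8 in tubules, at least 20.3-fold lower, and its other probe sets were as far apart (970.1 and 15.6, 977.9 and 3.2). Tnp1, a transition protein that precedes the protamines, had 814.3 and 1.5, at least 10.7-fold lower. Sycp1 and Sycp3, which build the synaptonemal complex of meiosis, had 304.2 and 5.3 (at least 3.99-fold) and 277.9 and 49.1 (5.66-fold). Stages before meiosis differed too. Ddx4, a helicase of all germ cells, had 304.8 and 69.2 (4.40-fold lower), and Stra8, which marks entry into meiosis, had 351.6 and 18.2 (at least 4.61-fold). Dazl, an RNA-binding protein of germ cells, had 1086.9 and 510 (2.13-fold), with a second probe set at -1.71. Zbtb16 and Sall4, factors of undifferentiated spermatogonia, were 3.15-fold and 2.37-fold lower.

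In counts, 5 of 8 spermatogonial, 3 of 4 meiotic and 6 of 7 spermatid genes kept were at least 2-fold lower in W/Wv tubules. The medians were -1.17, -3.28 and -3.82 with the deposited signals, and -1.17, -2.25 and -2.06 with dim signals set to their bound. The 5 members that did not reach 2-fold lower were Id4, a spermatogonial factor with 724.8 in whole testis and 1401.1 in tubules, Uchl1 (974.8 and 828.8), Mov10l1 (212.3 and 147.8), the chaperone Hspa2 (346.3 and 326.8) and Odf2, an outer dense fibre and centriole protein. Odf2 had 448.9 and 1513.7 on its brightest probe set, but its other probe sets gave 0.21 and 0.10. With the brightness rule raised to the 75th percentile, 1 of 3 spermatogonial genes was at least 2-fold lower in W/Wv (median -0.23). Of 3 spermatid genes 2 were lower and 1 higher (median -6.02). Many of these dim genes pass the brightness rule only through whole testis, which raises the share lower among genes kept. With no filter 8 of 13 spermatogonial, 7 of 11 meiotic and 11 of 15 spermatid genes were lower. With both arrays above the background bound 5 of 10, 1 of 3 and 3 of 7 were, with medians of -0.81, -0.08 and -0.46. In XX/Sry whole testis Ddx4 read 0.9, Sycp1 22.6, Tnp1 4.8 and Prm2 47, all under the background bound of 63.9 there. Above the bounds of XX/Sry whole testis and tubules lay 6 and 7 of 13 spermatogonial, 2 and 4 of 11 meiotic and 7 and 6 of 15 spermatid markers, so ratios of these lists in XX/Sry are not set beside those of W/Wv. The part of germ cells in the other genes lower in W/Wv tubules was not tested. Kit itself had 256.1 in W/Wv whole testis and 139.3 in tubules, and 892.5 and 569.4 in XX/Sry; a second probe set of Kit had 158.3 and 25.4 in W/Wv. Since both arrays are of mutant males, these values do not check the genotype.

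**Figure D3:**
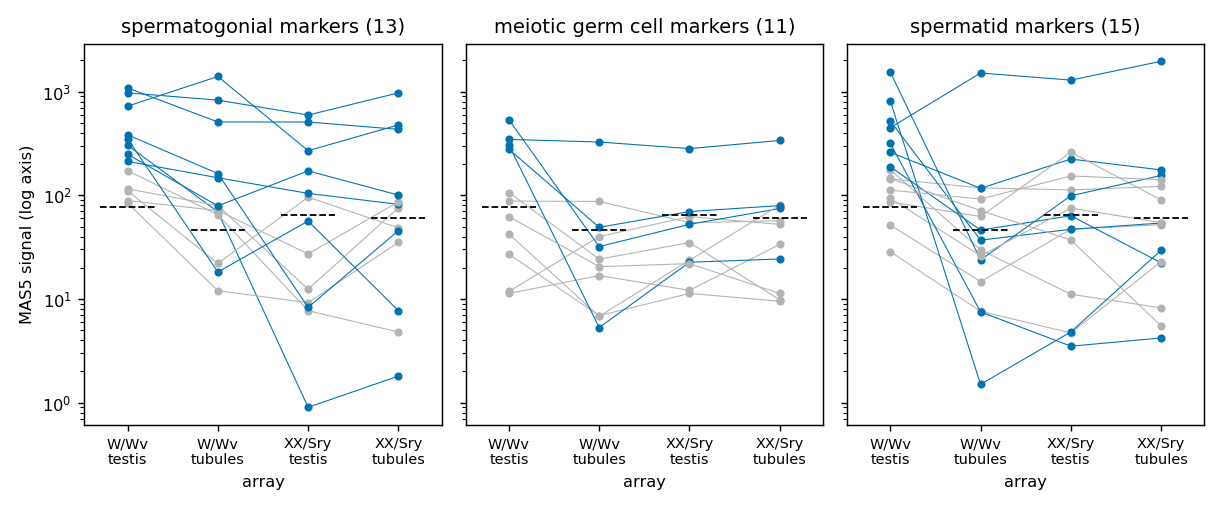
MAS5 signals (y, log axis) of all measured spermatogonial, meiotic and spermatid markers on the 4 arrays (x), 1 line a gene, blue where the gene was kept and grey where it was too dim. Dashed bars are the background bound of each array. In W/Wv whole testis 13 of 13, 6 of 11 and 13 of 15 genes lie above it, and in W/Wv tubules 10, 3 and 7 do.

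Cell cycle genes also lay lower in tubules. Of 15 kept, 8 were at least 2-fold lower and 0 higher, with a median of -1.17 against -0.42 in XX/Sry. With the brightness rule raised to the 75th percentile, 1 of 5 was lower in W/Wv and the median was -0.40. Mcm5, a subunit of the replication helicase, had 493.7 and 79.4 (6.22-fold lower), Cdc20, an activator of the anaphase complex, had 638.4 and 162 (3.94-fold), and Ccnb2, a mitotic cyclin, had 247.3 and 55.6 (4.45-fold). Mki67, the proliferation antigen, had 215.3 and 45.6 (at least 2.82-fold). The mitotic kinase gene Bub1 was 4.30-fold lower on its brightest probe set (202.8 and 47.2), while a second set ran the other way at 2.2 and 65. Pcna and Cdk1 did not reach 2-fold, at 3327.3 and 2663.6 and at 2153.6 and 2494.8.

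Sertoli cell genes were present in both preparations, and their ratios were small. Of 20 kept of 21 measured, 2 were at least 2-fold higher in tubules and 0 lower, and the median of 0.46 turned to -0.10 with the spike controls set equal. With median centring 5 of 20 were at least 2-fold higher, and with the spike controls set equal 0 were. Of the 20 ratios 18 lay above 0 with the deposited signals and 8 with the spike controls set equal. Sox9, the factor that sets Sertoli cell fate, had 562.9 in whole testis and 1182.4 in tubules (2.10-fold higher), and a second probe set gave 0.69. Nr0b1, a nuclear receptor of Sertoli and steroid-producing cells, had 1477.3 and 3159.4 (2.14-fold). Clu, a secreted chaperone, had 29276 and 50416.1, and its 4 probe sets gave 0.38 to 0.78. Fshr, the receptor for follicle-stimulating hormone, had 527.6 and 938.1 (1.78-fold). The transcription factors Wt1 and Dmrt1 were near 0, at 1290.2 and 1565.4 and at 1581.6 and 1447.5. Amh, a hormone of fetal Sertoli cells, was too dim to be kept. In XX/Sry the list median was 0.41, with 5 of 20 at least 2-fold higher.

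Genes of the junctions between Sertoli cells had a larger median. Of 9 kept, 3 were at least 2-fold higher in tubules, and the median was 0.95, or 0.39 with the spike controls set equal. The count past 2-fold depended on the setting, with 0 of 9 when the spike controls were set equal, 7 with median centring and 1 with the probe sets of a gene averaged (median 0.69). Cldn11, the main claudin of the blood-testis barrier, had 2228.4 in whole testis and 4312.9 in tubules (1.94-fold). Cdh2 (N-cadherin) had 1231.6 and 2606.1, and F11r, an adhesion molecule of tight junctions, had 2029 and 4201.2. Ocln (occludin) had 655.4 and 1199.4, while Tjp1, the scaffold under the junction, had 2278.9 and 2151.6. The XX/Sry median was 0.20.

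Genes of the tubule wall and its vessels lay mostly above 0. Of 12 peritubular myoid and smooth muscle genes kept, 5 were at least 2-fold higher in tubules and 0 lower. Their median was 0.71 with the deposited signals. With the spike controls set equal 2 of 11 were higher (median 0.38), and with the probe sets of a gene averaged 3 of 12 were higher and 1 lower (median 0.39). The lower one was Notch3, a receptor of vessel wall cells, at 1.34 on its brightest probe set and -1.11 averaged with a dim one. Acta2, smooth muscle actin, had 5126.7 in whole testis and 9822.9 in tubules (1.92-fold), and Myh11, the smooth muscle myosin, had 350.8 and 974.9 (2.78-fold). Tpm2, a tropomyosin, had 1182.2 and 3523.9 (2.98-fold), and Tagln, an actin-binding protein, was 2.38-fold higher. Rgs5, a marker of pericytes around vessels, had 216.6 and 649.9. Mylk, the kinase that triggers contraction, was below 0 on its brightest probe set, at 4611.6 and 3611.4. Its 3 probe sets kept ranged from -0.35 to 0.79 with a mean of 0.41, so its direction was not settled. The endothelial list had 8 of 15 genes kept, 3 of them at least 2-fold higher, with a median of 0.47. With the spike controls set equal 1 of 7 was higher and the median was 0.01. Vwf, which endothelial cells secrete for clotting, had 36.4 and 282.2, at least 3.70-fold higher, Cldn5 had 229.3 and 562.4, and Esam had 147.7 and 324. The defining endothelial genes Cdh5 and Pecam1 had 137.3 and 176.1, and 37.7 and 127.1, the last too dim to be kept. Kdr was the 1 endothelial gene kept that lay below 0, at a log2 ratio of -0.20. Of the 8 ratios 7 lay above 0 with the deposited signals and 4 with the spike controls set equal. Summed over all 15, whole testis read 2250.5 and tubules 3360.4. In XX/Sry 1 of the 12 smooth muscle genes was at least 2-fold higher in tubules (median 0.26). The same held for 1 of the 8 endothelial genes (median 0.45), and 0 genes of either list were 2-fold lower there.

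The basement membrane list had a median of 0.06 over 12 genes, with 2 at least 2-fold higher (16.7%) and 1 lower (8.3%). Over all genes kept the shares were 5.21% and 8.97%. Col18a1, the source of endostatin, had 1017.2 in whole testis and 2260.2 in tubules, and the laminin chain Lamc1 had 210.5 and 441.5, while the linker Nid2 had 219 and 107.6. Among 13 genes of glucose use and lactate, 1 was higher and 1 lower (7.7% each, near the shares over all genes kept). Slc16a1, a lactate and pyruvate transporter, had 2244 and 5369.3 (2.39-fold higher), and the glycolytic enzyme Tpi1 had 2423.1 and 657.4 (3.69-fold lower). Of 6 growth factors that act on spermatogonia, 2 were at least 2-fold lower, namely Cxcl12, a chemokine (3098.8 and 1066), and Igf1 (1110.7 and 459.5). The Sertoli cell factors of that list stayed within 2-fold, Kitl, the ligand of Kit, at 3616.1 and 5119.2, and Gdnf, which keeps spermatogonial stem cells, at 216.8 and 283. Of 4 retinoid genes kept 0 reached 2-fold. Genes often used as references had medians below 0 but went both ways. Above 0 lay 1 of 13 ribosomal protein, 6 of 19 respiratory chain and 3 of 10 reference genes. Summed, the reference genes read 37266.6 in whole testis and 42334.2 in tubules. The medians of these lists were, in that order, -0.44, -0.37 and -0.34, each list with 1 gene at least 2-fold lower. With the spike controls set equal these medians were -0.996, -0.93 and -0.90, with 6, 8 and 4 genes at least 2-fold lower.

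Markers of other cells were scarce. Of 7 mast cell, 6 mesothelial, 4 epididymal and 2 nerve sheath markers measured 0 were bright enough to be kept, and of 9 lymphocyte, 7 adipocyte and 3 erythroid markers 1, 2 and 1 were. The mesothelial genes of the tunica, which is removed from tubules, had a summed signal of 517.2 in whole testis and 185.3 in tubules, with Upk3b at 104 and 6.6 and Gpm6a at 162.9 and 20.3. Of the 6, 3 lay above the background bound in whole testis and 1 in tubules. Other dim lists also summed lower, as did adipocyte (862 and 418.1) and mast cell markers (329.3 and 220.8). Lymphocyte (571.9 and 636.7) and erythroid markers (272.5 and 384.8) summed higher. The part of the tunica was not tested.

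Immediate early genes, which are transcribed within minutes of many stimuli, held the gene with the highest ratio. Of 29 kept of 39 measured, 12 were at least 2-fold higher in tubules (41.4%, where 5.21% of all genes kept were) and 3 lower, and the median was 0.71. With the spike controls set equal 5 were higher and 3 lower (median 0.15), and with median centring 13 and 1. Fos, a subunit of the AP-1 factor, had 283.2 in W/Wv whole testis and 5265 in tubules, 18.6-fold higher, and 216.3 and 2117.4 in XX/Sry, 9.79-fold higher. Its partner Jun had 507.7 and 1802.9 (3.55-fold), with a second probe set at 0.68, and Junb had 305.5 and 916.9. The AP-1 subunits kept all lay above 0, Jund least, at 1614.2 and 2269.1, a log2 ratio of 0.49 that turns below 0 with the spike controls set equal. Among genes that switch the response off, Dusp1, a phosphatase of stress kinases, had 433.1 and 1383 (3.19-fold). Zfp36, which speeds decay of mRNAs with AU-rich elements, had 313 and 886.8 (2.83-fold). Egr1, a zinc finger factor, had 1054.5 and 2236.4 (2.12-fold) in W/Wv and 645.7 and 2454.1 (3.80-fold) in XX/Sry. Btg2, Dusp6, Ccn1, Gadd45a, Gadd45g and Rhob were also at least 2-fold higher, by 2.06-fold to 3.12-fold. The exceptions were Sik1, a kinase, with 216.5 and 63.1, Klf10 with 438.4 and 210.4, and Egr2 with 189.8 and 90.1, although a dim second probe set of Egr2 gave 0.55. Gadd45g was 3.12-fold higher in W/Wv and had 510.5 and 466.2 in XX/Sry, so it was not 2-fold higher there. The XX/Sry median of the list was 0.49, with 5 of 29 at least 2-fold higher and 0 lower.

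Few other stress genes passed 2-fold in either direction. Of 6 cytokine and NF-kB response genes kept of 21 measured, Socs3, an inhibitor of cytokine signalling, was the one past 2-fold, at 113.2 and 668.7 (5.91-fold higher). Its 3 probe sets gave 2.56, 1.91 and 1.28. Nfkbia, the inhibitor of NF-kB, had 8223.1 and 7731.9, and Il6 and Tnf were under the background bound on both W/Wv arrays. Of 19 heat shock and endoplasmic reticulum stress genes, 2 were at least 2-fold higher and 2 lower. That is 10.5% each way, where 5.21% of all genes kept were higher and 8.97% lower. Hspa5, the chaperone of the endoplasmic reticulum, had 6329.9 and 16757 (2.65-fold higher), with a second probe set at 0.70, and Hspb1, a small heat shock protein, had 6591.7 and 16119.3. Herpud1, which acts in protein degradation there, had 600 and 168.4 (3.56-fold lower). The inducible Hspa1a and Hspa1b were within 2-fold in W/Wv and 3.47-fold and 2.90-fold higher in XX/Sry. Whole testis and tubules differ by digestion and washing, by the cells they hold and possibly by the animals used, and these cannot be told apart.

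The windows at the starts of the immediate early genes held few of the patterns searched, and 3 are shown to let the gene with the highest ratio be read beside genes with a match. Of 34 windows, 5 held a CArG box (14.7%, against 1.5% of windows of genes kept), of which 4 are at Egr2, 3 of them overlapping, and 1 is at Zfp36, and 2 held TGACGTCA (5.9%, against 3.1%), at Btg2 and Dusp1. AP-1 matched 0 of the 34. Dusp1 lies at chr17:26508423-26508722 on the minus strand, with the CREB site in capitals, Zfp36 at chr7:28379179-28379478 on the minus strand, with the CArG box in capitals, and Fos at chr12:85473640-85473939 on the plus strand, with no match.
Dusp1: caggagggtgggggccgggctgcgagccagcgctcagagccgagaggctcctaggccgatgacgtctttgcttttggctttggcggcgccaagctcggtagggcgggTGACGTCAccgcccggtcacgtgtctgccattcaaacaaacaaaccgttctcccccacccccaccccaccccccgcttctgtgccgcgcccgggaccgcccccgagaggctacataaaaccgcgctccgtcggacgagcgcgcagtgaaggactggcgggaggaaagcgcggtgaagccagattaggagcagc
Zfp36: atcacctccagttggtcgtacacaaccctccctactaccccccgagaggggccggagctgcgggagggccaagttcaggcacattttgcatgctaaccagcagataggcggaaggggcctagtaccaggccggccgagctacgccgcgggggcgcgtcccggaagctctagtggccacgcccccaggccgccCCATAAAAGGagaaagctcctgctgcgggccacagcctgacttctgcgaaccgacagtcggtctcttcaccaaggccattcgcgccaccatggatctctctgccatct
Fos: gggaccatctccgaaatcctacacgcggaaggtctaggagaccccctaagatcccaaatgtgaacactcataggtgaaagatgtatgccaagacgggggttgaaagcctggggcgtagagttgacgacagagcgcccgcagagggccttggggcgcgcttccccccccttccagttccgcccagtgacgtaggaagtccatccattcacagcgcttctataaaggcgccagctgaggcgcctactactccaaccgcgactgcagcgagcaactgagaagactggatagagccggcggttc
Windows of genes higher in tubules had a median GC content of 63.3% and those of genes lower 58.0%, against 61.0% for all genes kept.

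The 15 genes with the highest ratios were led by Fos and Socs3 and included Jun and Vwf, described above. Ajuba, a scaffold at adherens junctions, had 359.7 in whole testis and 2071.7 in tubules (5.76-fold higher), with 492.7 and 1003.2 in XX/Sry. Slc27a1, a fatty acid transporter, had 220 and 1129.9 (5.14-fold) in W/Wv, while XX/Sry had 728.6 and 672.2. Adgrg1, an adhesion receptor, was 4.88-fold higher, with a second probe set at 1.82, and 634.8 and 641.9 in XX/Sry. In XX/Sry Ajuba was thus also higher in tubules, and Slc27a1 and Adgrg1 were level. Plat, tissue plasminogen activator, had 527.7 and 2048.9 in W/Wv, while XX/Sry had 857.5 and 2817.5, so it was higher in tubules of both. Pdia4, a folding enzyme of the endoplasmic reticulum, had 402.6 and 1650.8 in W/Wv, while XX/Sry had 401.5 and 2101.8, although a second, dim probe set read 91.3 and 85.7 in W/Wv. Ncstn, a subunit of gamma-secretase, was 4.90-fold higher in W/Wv and 2.71-fold higher in XX/Sry. Ufd1 was 4.73-fold higher, with a second probe set at 0.86. For Api5, 3.94-fold higher on its brightest probe set, other probe sets kept gave 0.59 and 0.39. Ntn4, a netrin of basement membranes, was 3.83-fold higher, and Vac14 and Rassf1 were 3.52-fold and 3.49-fold higher. In XX/Sry 7 of these 15 genes were at least 2-fold higher and 0 lower.

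The 15 lowest genes comprised genes also lower in XX/Sry tubules and germ cell genes. In the first kind, Cbr2, a carbonyl reductase, had 1332.8 in whole testis and 147.4 in tubules (9.04-fold lower), and 1205.5 and 60.9 in XX/Sry. Hao2, a peroxisomal oxidase, had 2044.8 and 252.4 (8.10-fold), and 2465.2 and 279.7 in XX/Sry. Lyz1 had 9741.3 and 1258.2 (7.74-fold), but its sequence is nearly identical to that of the macrophage lysozyme Lyz2, so the signals of both are uncertain. Klk1b27, a kallikrein with near-identical paralogs that could share its probes, was 7.37-fold lower, and Tnfaip8 and Limd2 were 6.92-fold and 6.85-fold lower. With Tyrobp these are the 7 of the 15 at least 2-fold lower in XX/Sry as well, while 2, Tnp1 and Rpl39l, had ratios past 2-fold higher there between signals that were all under the background bound. In the second kind, Prm1, Prm2, Tnp1 and Ldhc, the lactate dehydrogenase of germ cells, are on the germ cell lists. Rpl39l, a ribosomal protein of the testis (986.2 and 109.1), Ddx25, a helicase of spermatids (484.5 and 65.6), and Tktl1, a transketolase (379.1 and 54.3), are not on a list, and had at most 78.7 on either XX/Sry array. Ndrg4 stood alone: it had 635.1 and 59.5 in W/Wv (10.7-fold lower) and 798.6 and 868.9 in XX/Sry, while a second, dimmer W/Wv probe set gave -0.38.

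**Figure D4:**
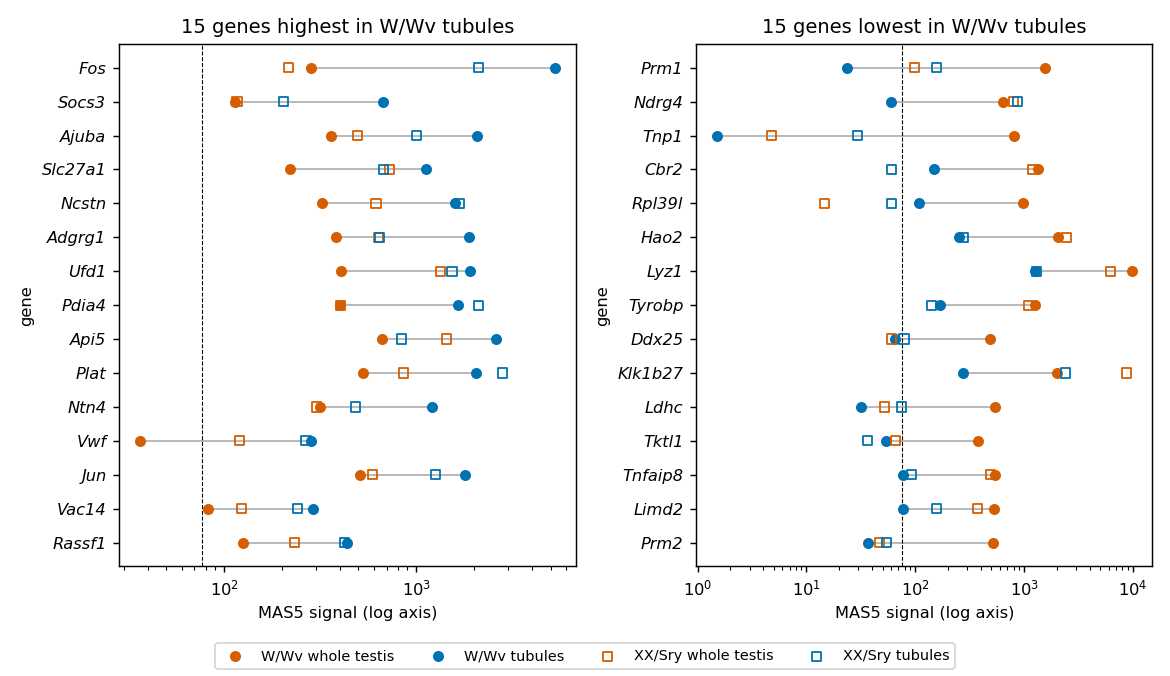
MAS5 signals (x, log axis) of the 15 genes with the highest (left) and lowest (right) ratios in W/Wv (y), with filled circles for W/Wv, open squares for XX/Sry, orange for whole testis and blue for tubules. The dashed line is the background bound of W/Wv whole testis, 76.3. Fos has the widest gap on the left (283.2 to 5265), and on the right Prm1, Tnp1, Ldhc, Prm2, Ndrg4, Ddx25 and Tktl1 end below the line, the last 3 above the tubule array's own bound of 46.1.

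A repeat measure within the arrays came from genes with several probe sets. These read the same 2 RNA samples at other places in the transcript and so show no spread between animals. How much of their spread is technical was not tested. Over 2682 genes with at least 2 probe sets kept, the median SD of the log2 ratio within a gene was 0.35, against 0.81 over all probe sets kept. Of 136 genes higher in tubules that had another probe set kept, all the others were also 2-fold higher in 30 (22.1%) and above 0 in 107 (78.7%). Of 140 genes lower in tubules, all the others were 2-fold lower in 69 (49.3%) and below 0 in 126 (90%). These shares were not compared by a test. In 14 genes, among them Lims1, Ndufs8, Nf2 and Ywhab, probe sets passed 2-fold in opposite directions.

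**Figure D5:**
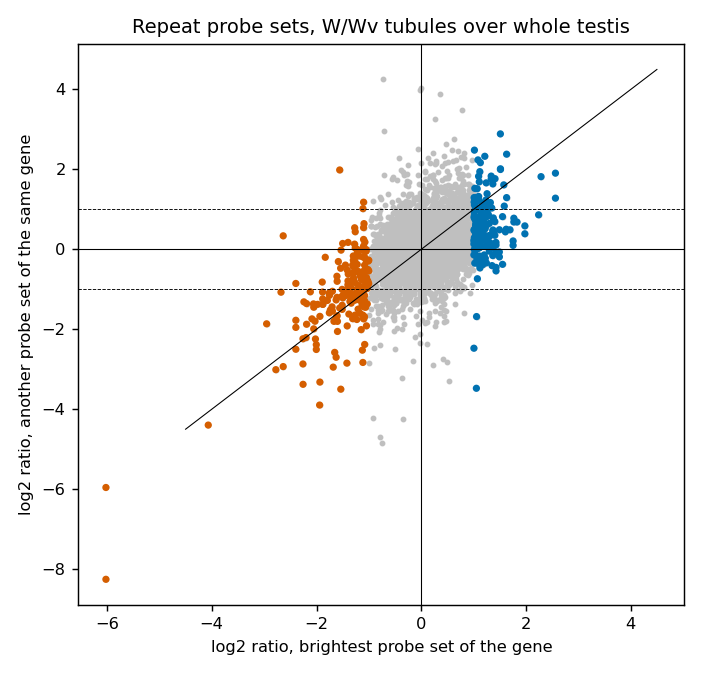
Log2 ratio in W/Wv of the brightest probe set of a gene (x) and of another probe set of the same gene (y), for 3992 pairs from 2682 genes with both kept. Blue and orange mark genes at least 2-fold higher or lower on the x axis, the diagonal is equality and dashed lines 2-fold. The pairs correlate at 0.498 (Pearson), and most coloured points keep their sign.

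The XX/Sry pair shares no array with the W/Wv pair. Of the same 7300 genes, 358 (4.9%) were at least 2-fold higher in XX/Sry tubules and 580 (7.95%) lower. Of the 655 genes lower in W/Wv tubules, 268 (40.9%) were lower in XX/Sry and 18 higher. Of the 380 genes higher in W/Wv tubules, 57 (15%) were higher in XX/Sry and 8 lower. The Pearson correlation of the log2 ratios over the 7300 genes was 0.44, given as a description since genes are not replicates.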

How the data were processed

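RNA of 4 samples was hybridised for 16 h to 1 array each, and no group had a replicate, so the number of arrays limits the precision. The deposited values are array intensity, as linear MAS5 signals per the submitters' processing notes, and Microarray Suite 5.0 was the software per the labels' design text. The mean signal without the extreme probe sets was near 500.0 on each array (499.955 in W/Wv whole testis), so each had been scaled by its own factor; detection calls were not used here. Of 22690 probe sets, 64 controls were set aside. The platform's annotation gave 1 gene symbol to 20380 of the rest, several to 691 and none to 1555.

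Ratios of the deposited signals were taken in Python 3.11.15 with pandas 2.3.3 and numpy 2.4.6, with no offset and no test, and counted at 2-fold, the fold in the design text. The scripts were checked on simulated data. The text names the 15 genes furthest from 0 in each direction (dim signals raised to the background bound) and Kit. Of each list, the first 3 measured genes and up to 6 others furthest from 0 were drawn for naming. The text names some of these and leaves others out. Of genes whose probe sets passed 2-fold in opposite directions it gives the few that matter. Other list genes named were chosen after their values were seen. The 31 lists hold 460 genes, of which 395 were measured and 281 kept. The comparison, its genes and the lists were chosen with earlier results of these data known. Alternatives changed the scaling (array medians, quantiles, spike controls), added 50 to each signal, changed the brightness filter or the fold, or averaged the probe sets of a gene. Sequences are from RefSeq (GRCm38.p6).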

Additional observations from a re-analysis of the deposited data

Results flagged for a closer look

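Cldn3, a claudin of the Sertoli cell junctions, ran in opposite directions in the 2 genotypes on its brightest probe set, which is why it is listed. It had 350.9 in whole testis and 776.9 in tubules of W/Wv, and 645.7 and 170.7 in XX/Sry, a difference of 3.07 between the log2 ratios. The 4 Cldn3 probe sets kept gave 0.25 to 1.15 in W/Wv, and the one shown is the highest. The lowest turns below 0 with the spike controls set equal, and the XX/Sry ratios of the others are not given here. This difference was not tested, and each value is 1 array.

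Control probe sets outside the main measurement also differed between the W/Wv arrays. A control for the B1 repeat, a short interspersed element of the mouse genome, had 31866.1 in whole testis and 3654.7 in tubules, a log2 ratio of -3.12, and 6510.7 and 1327.4 in XX/Sry. A control for the B2 repeat had 865.9 and 352.5, a log2 ratio of -1.30, while another B2 control had 28390.5 and 23014.5.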

How the results depend on the processing

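The 789 probe sets higher in tubules became 1371 with each array centred on its median, 189 with the spike controls set equal, 2107 with no brightness filter, 418 with a brightness filter at the 75th percentile, 178 at 3-fold and 2148 at 1.5-fold. The 1127 lower became 3158 with the spike controls set equal, 4307 with no filter, 410 at the 75th percentile, 445 at 3-fold and 2453 at 1.5-fold. Quantile normalisation (940 higher and 1000 lower), an added constant of 50 (562 and 827) and both arrays above the background bound (693 and 1416) kept each count within 1.5 times. Averaged over all probe sets of the gene, the log2 ratio changed sign for Bub1 (from -2.10 to 1.39), Cbfa2t3 (1.05 to -0.27), Dpf1 (1.01 to -0.73), Notch3 (1.34 to -1.11) and Trim7 (1.06 to -0.31). Of 224 named genes, 172 kept their side of 2-fold with the spike controls set equal, 205 with median centring and 220 with quantile normalisation. The causes were not tested. No paired analysis was possible because each group had 1 array. Signals under the background bound give lower bounds of a fold.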

Other observations

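Some gene families outside the lists, chosen after their values were seen, were also examined in W/Wv. Of 5 insulin-like growth factor binding proteins kept, 3 were at least 2-fold lower in tubules. Igfbp4 had 2394.4 in whole testis and 455.2 in tubules, Igfbp6 had 5098.4 and 1096.3, and Igfbp2 had 715.4 and 199.8, while Igfbp3 had 1034.5 and 1903.7. Of 4 apolipoproteins, Apoc1 had 2210.5 and 379.5 and Apoe, which carries lipid between cells, had 9797.8 and 3423.9. All 3 tissue kallikreins kept, which have near-identical sequences, were at least 2-fold lower, with a median of -2.28. The 8 proteasome beta subunits all lay below 0 with 0 past 2-fold, with a median of -0.61. The 16 glutathione transferases were divided, with 6 above 0 and 10 below, 2 at least 2-fold lower (Gsta3 and Gstk1) and 0 higher. Of 7 Sox factors 6 lay above 0 and 2 were at least 2-fold higher, Sox9 and, from a whole testis signal under background, Sox18 (23.5 and 178.6). The one below 0 was Sox3, a factor of spermatogonia, with 205 and a tubule signal of 32.9 under background.

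Among 7102 genes with all 4 signals above their bounds, those whose ratios differed most between the genotypes included Cntd1, a regulator of meiotic crossovers, with 6098.1 in whole testis and 2089 in tubules of W/Wv, against 1356.7 and 4659.3 in XX/Sry. Bik, a promoter of apoptosis, had 233 and 80.3 in W/Wv, while XX/Sry had 149.6 and 451.5. Lifr, a cytokine receptor, had 1729.6 and 3441.7 in W/Wv, while XX/Sry had 5307.2 and 1273.1. Cbr3, a paralog of Cbr2, had 316.3 and 77.1 in W/Wv, while XX/Sry had 529.2 and 794.3. Each gene is read on its brightest probe set. Cntd1, Bik and Lifr have 3 probe sets each, and the others are not given here. Whether the Cntd1 signal comes from germ cells was not tested, and neither were these differences.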
